A study of Mus musculus with 16 samples.

Results

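The 8 genes Slc1a1, Slc1a2, Slc1a3, Slc1a4, Slc1a5, Slc38a1, Slc38a2 and Glul encode GLAST, its relatives and the proteins that turn glutamate into glutamine and move glutamine across the membrane. They were chosen by symbol from the 50316 genes listed in each deposited table, and all 8 were measured in every library. RNA was sequenced from cochleae of P4 mice in 16 libraries, with 4 input and 4 IP libraries from control mice and the same numbers from DTR mice. Control mice were GLAST CreERT/+; Rpl22 HA/+, and DTR mice were Lgr5 DTR/+; GLAST CreERT/+; Rpl22 HA/+. Control and DTR groups therefore share the Cre driver and the tagged ribosomal protein, and differ in the diphtheria toxin (DT) receptor allele at Lgr5. According to the methods, mice of both genotypes were given tamoxifen and DT at P1, whereas the labels of control libraries state that none was given. Input is RNA from 5% of a homogenate. IP is RNA that came down with HA-tagged ribosomes from the other 95%.

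The model limits what these groups stand for. The tag is switched on by a Cre whose expression follows Slc1a3, so any cell that uses this promoter, whether supporting cell or glia, can carry it. Each replicate is a pool of cochleae from several mice, and an input and an IP of the same number come from the same pool. According to the methods, the lateral wall, Reissner's membrane and spiral ganglia had been dissected away. Schwann cell and stria vascularis markers remained detectable in every group.

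Glutamate is the transmitter that inner hair cells release onto auditory nerve fibres, and it has to be cleared from the synapse for signalling to end and to avoid excitotoxic injury. GLAST, encoded by Slc1a3, sits on the supporting cells around inner hair cells and carries glutamate inward together with sodium ions and a proton, in exchange for potassium. In glia, glutamine synthetase, encoded by Glul, turns the captured glutamate into glutamine, which leaves through and re-enters neurons by transporters of the Slc38 family. The Slc1 family also holds a pair of neutral amino acid exchangers, ASCT1 (Slc1a4) and ASCT2 (Slc1a5), which move alanine, serine, cysteine and, for ASCT2, glutamine.

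Between 28089836 and 41966310 reads per library were counted on genes. Values are CPM, reads of a gene scaled to a common library total of counted reads, as mean ± SD over 4 libraries unless single libraries are given. Log2 fold changes (LFC) and p-values come from limma on log2(quantile normalized CPM + 0.5) over all 16 libraries and 16994 tested genes, two-sided, with Benjamini-Hochberg adjustment, and a gene was called at an adjusted p under 0.05. Lgr5, whose locus drives the toxin receptor, fell from 63.3 ± 3.03 CPM to 15.9 ± 3.69 CPM in input (adjusted p = 2.23e-08) and from 36.6 ± 3.99 CPM to 9.38 ± 1.40 CPM in IP (LFC -1.94 ± 0.15 SE, adjusted p = 3.47e-08). Of 8 markers of pillar and Deiters cells, a list that holds Lgr5 itself, 7 fell in each sample type. In bulk RNA, fewer cells of a type and less RNA per cell cannot be told apart. The toxin receptor is a knock-in at Lgr5, and no DTR mice without damage were sequenced. Effects of the allele, on Lgr5 itself and on other genes, therefore cannot be told apart from effects of damage.

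Cre expression follows Slc1a3 in these mice, and Slc1a2 and Slc1a4 moved in opposite directions after damage, so their promoters are shown with it. RefSeq promoter windows (GRCm38.p6, 250 bases before to 50 after a start site) were found for 6 of the 8 genes, and Slc1a5 and Slc38a1 had none. The bases before the start are printed 5′ to 3′ on the gene's strand, and for Slc1a4 the first 4 bases after it as well, where a match runs across it. Capitals mark matches on either strand. The GC box was searched as GGGCGG. The letters of the TATA box were TATAAA. An amino acid response element, the site to which ATF4 binds, was written TGATGNAA. For the AP-1 site, which none of these windows held, TGANTCA was used. The Slc1a3 stretch is chr15:8710808-8711057 (minus strand), Slc1a2 is chr2:102706188-102706437 (plus strand) and Slc1a4 is chr11:20332710-20332963 (minus strand).
Slc1a3: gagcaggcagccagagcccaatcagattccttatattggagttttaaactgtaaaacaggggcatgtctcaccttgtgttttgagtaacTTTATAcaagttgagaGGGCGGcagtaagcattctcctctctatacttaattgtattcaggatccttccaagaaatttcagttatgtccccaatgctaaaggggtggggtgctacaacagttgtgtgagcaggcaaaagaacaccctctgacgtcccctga
Slc1a2: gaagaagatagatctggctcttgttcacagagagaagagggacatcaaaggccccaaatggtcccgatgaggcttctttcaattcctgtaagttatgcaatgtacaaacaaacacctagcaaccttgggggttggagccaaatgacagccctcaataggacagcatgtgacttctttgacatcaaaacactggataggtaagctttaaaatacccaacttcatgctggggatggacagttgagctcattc
Slc1a4: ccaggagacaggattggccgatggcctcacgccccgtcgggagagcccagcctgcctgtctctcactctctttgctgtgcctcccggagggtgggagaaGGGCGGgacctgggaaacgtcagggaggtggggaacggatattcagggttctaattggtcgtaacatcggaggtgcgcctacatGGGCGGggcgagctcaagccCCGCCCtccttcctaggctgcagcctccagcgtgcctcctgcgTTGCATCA

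The Slc1a3 stretch holds a TATA box in reverse orientation, 161 to 156 bases before the start, and a GC box at 145 to 140 bases before it. None of the motifs matched in the Slc1a2 window, which starts inside the GENCODE gene and belongs to 1 of its alternative starts. The Slc1a4 stretch holds 3 GC boxes and an amino acid response element that runs across the start site. Over all 32851 windows of this length, 35.7% hold a GC box, 13.6% a TATA box, 3.97% an amino acid response element and 7.81% an AP-1 site. Glul, Slc38a2 and Slc1a1 windows each hold a single GC box. GC content was 45.3% in the Slc1a3 window and 45.7% in Slc1a2, below the median of 52.7% over all windows, and 65.0% in Slc1a4.

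Slc1a3 had the highest level of the 8 genes in every group once CPM was divided by the length of the gene's exons. In control mice it stood at 32.96 ± 1.68 CPM per kilobase in input and 27.7 ± 2.57 in IP, and in DTR mice at 31.7 ± 2.32 in input and 25.2 ± 2.15 in IP. Slc38a2 came next in each group, at 22.2 ± 1.58, 16.3 ± 3.06, 20.6 ± 1.62 and 19.0 ± 2.49 CPM per kilobase in the same order. No library of Slc38a2 reached the lowest library of Slc1a3 in its group, although in DTR IP the gap was small (21.8 against 22.8 CPM per kilobase).
Glul and Slc1a4 followed in control input, with 10.5 ± 0.858 and 12.6 ± 0.575 CPM per kilobase, and Slc1a1 was lowest at 0.953 ± 0.241. In control IP the neighbours Slc38a2 and Glul, Slc38a1 and Slc1a2, and Slc1a1 and Slc1a5 overlapped between libraries. In DTR IP Slc1a2 overlapped Slc1a4, and Slc1a4 overlapped Slc38a1. All other neighbours in the order were apart in every library.

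**Figure D1:**
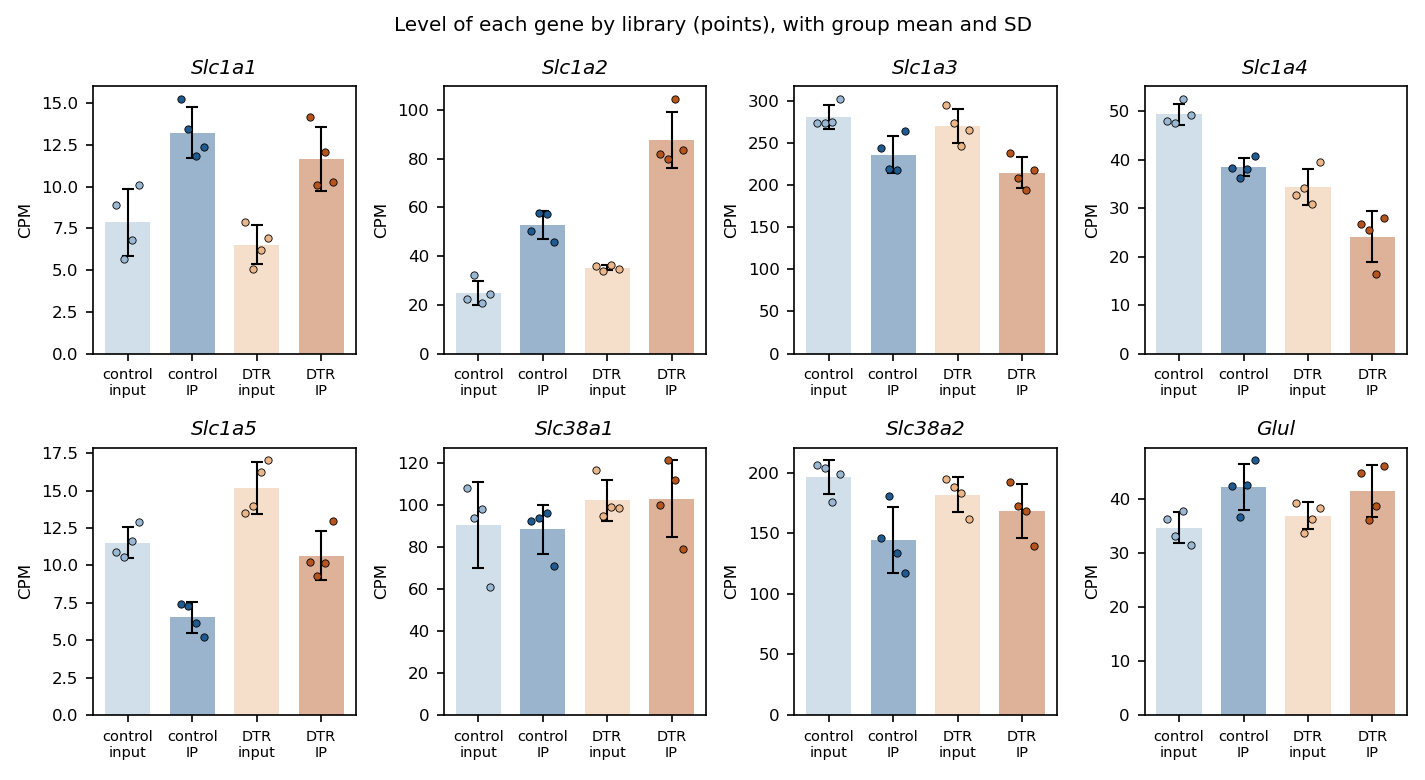
CPM of each of the 8 genes in the 16 libraries (points), with the group mean (bar) and SD (line), n = 4 per group. Slc1a2 had a mean of 24.9 CPM in control input and of 87.6 CPM in DTR IP, whereas Slc1a3 lay between 195 and 303 CPM in all libraries.

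GLAST itself was not enriched in the RNA of tagged ribosomes. Slc1a3 (ENSMUSG00000005360, chr15:8634124-8710764, minus strand, GRCm38) was at 274, 274, 275 and 303 CPM in the control input libraries and at 244, 219, 218 and 264 CPM in control IP. DTR input held 295, 274, 247 and 266 CPM, and DTR IP held 239, 209, 195 and 218 CPM. IP was below input in 8 of 8 pools, with IP to input ratios between 0.762 and 0.890. In CPM the libraries of IP and input did not overlap in either genotype, but in control they overlapped after quantile normalization.
For control IP against control input the LFC of Slc1a3 was -0.20 ± 0.09 SE (adjusted p = 0.102, limma), and for DTR IP against DTR input it was -0.27 ± 0.09 SE (adjusted p = 0.0299). The call in DTR was lost with only these 2 groups in the fit (adjusted p = 0.0728) and without DTR input replicate 1 (0.0893), DTR input replicate 2 (0.0614), DTR IP replicate 2 (0.0650) or DTR IP replicate 3 (0.0856). In control, a call appeared without quantile normalization (LFC -0.25, adjusted p = 0.0360), with median centring (0.0479) or without control IP replicate 4 (0.0431).
After damage Slc1a3 was not called. DTR IP against control IP gave an LFC of -0.11 (95% interval -0.30 to 0.09, adjusted p = 0.497) and DTR input against control input gave -0.04 (95% interval -0.23 to 0.16, adjusted p = 0.863). Of 5 markers of inner phalangeal cells, the supporting cells that enclose inner hair cells, 3 were lower and 0 higher in DTR IP against control IP (median LFC -0.55), and 1 was lower and 0 higher in input. Their summed level was between 2218 and 3111 CPM in control IP and between 2127 and 2612 CPM in DTR IP, with no marker at 0, and their part in the Slc1a3 values was not tested.

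Slc1a2, which encodes the astroglial glutamate transporter GLT-1, had the largest enrichment in IP among the 8 genes and was the only one of them called higher both in IP and after damage. Its gene (ENSMUSG00000005089) spans chr2:102658659-102790784 on the plus strand, and an exon overlaps the antisense gene Gm13872, whose reads cannot be told apart without strand. Control input held 22.3, 32.2, 20.8 and 24.3 CPM, and control IP held 50.2, 57.6, 57.2 and 45.7 CPM. Every IP library was above every input library.
The difference between control IP and control input was an LFC of 1.06 ± 0.13 SE (adjusted p = 2.49e-06, limma). DTR input held 36.0, 33.9, 36.4 and 34.9 CPM and DTR IP held 82.0, 80.1, 105 and 83.5 CPM. Again the groups did not overlap, and the LFC was 1.28 ± 0.13 SE (adjusted p = 3.51e-07). IP exceeded input in 8 of 8 pools, by 1.79-fold to 2.75-fold in control and 2.28-fold to 2.88-fold in DTR.
DTR IP was above control IP in every library, with an LFC of 0.72 ± 0.13 SE (adjusted p = 5.15e-04). In input the rise after damage was an LFC of 0.50 ± 0.13 SE (adjusted p = 0.0121), and this call was lost without control input replicate 3 (LFC 0.43, adjusted p = 0.0501). The rise in IP and that in input were not shown to differ (interaction LFC 0.22, 95% interval -0.15 to 0.59, adjusted p = 0.999).

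Slc1a1, which encodes EAAC1, the glutamate transporter best known from neurons, was enriched in IP at a low level. It lies at chr19:28835049-28913960 on the plus strand (ENSMUSG00000024935), with an exon overlap with the antisense gene 4430402I18Rik. Control input held 8.89, 5.69, 6.79 and 10.1 CPM and control IP held 15.3, 13.5, 11.8 and 12.4 CPM, so that the groups were apart. The LFC was 0.78 ± 0.19 SE (adjusted p = 0.00238, limma).
DTR input held 7.86, 5.07, 6.23 and 6.91 CPM and DTR IP held 14.2, 10.1, 12.1 and 10.3 CPM, also without overlap (LFC 0.83 ± 0.19 SE, adjusted p = 0.00166). IP was above input in 8 of 8 pools. Control and DTR libraries overlapped in both sample types, with an LFC of -0.24 in IP (95% interval -0.63 to 0.14) and -0.29 in input (95% interval -0.68 to 0.10).

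The make-up of the 3 glutamate transporters changed accordingly. Of the CPM per kilobase summed over Slc1a1, Slc1a2 and Slc1a3, the share of Slc1a3 in control mice was between 91.1% and 93.0% in input and between 81.0% and 86.1% in IP. In DTR mice it was between 89.1% and 90.95% in input and between 70.7% and 77.8% in IP. Slc1a2 made up 5.31% ± 1.11, 12.1% ± 2.07, 7.67% ± 0.616 and 20.1% ± 3.18 in the same order. These shares depend on the length used. In DTR IP the levels of Slc1a3, Slc1a2 and Slc1a1 were 25.2, 6.67 and 1.41 CPM per kilobase of exons. With the longest transcript as length they were 48.5, 7.55 and 3.07, which makes the share of Slc1a2 smaller. GLAST transcripts thus formed the bulk of the sum in every library, and DTR IP had the lowest share of Slc1a3, below every library of the other groups.

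**Figure D2:**
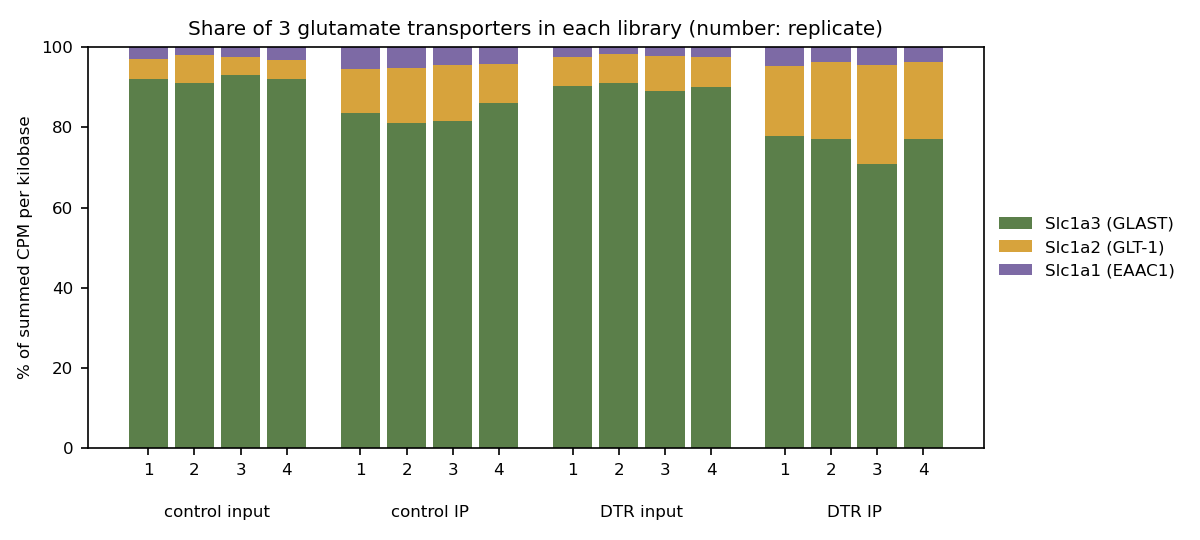
Share (%) of Slc1a3, Slc1a2 and Slc1a1 in their summed CPM per kilobase, one bar per library, grouped by genotype and sample type. The Slc1a2 share was lowest in control input (4.58% to 6.96%) and highest in DTR IP (17.4% to 24.7%).

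The neutral amino acid exchangers of the family moved apart after damage, Slc1a4 down and Slc1a5 up. Slc1a4 (ENSMUSG00000020142, chr11:20302180-20332713, minus strand) was at 48.0, 47.6, 52.6 and 49.2 CPM in control input and at 32.8, 34.1, 30.8 and 39.6 CPM in DTR input. Control IP held 38.4, 36.3, 38.2 and 40.8 CPM and DTR IP held 26.7, 25.4, 16.4 and 27.9 CPM. In both sample types every DTR library was below every control library.
For Slc1a4 the change after damage was an LFC of -0.72 ± 0.14 SE in IP (adjusted p = 0.00136, limma) and -0.53 ± 0.14 SE in input (adjusted p = 0.0170). The input call was lost without control input replicate 3 (adjusted p = 0.0565), DTR input replicate 1 (0.0568) or DTR input replicate 3 (0.0509). Pillar and Deiters cell markers fell in the same comparisons (7 of 8 in each, median LFC -1.89 in IP and -2.5 in input). Other lists held falling markers too, such as inner phalangeal cells (3 of 5 in IP and 1 of 5 in input). The part of these cells in the fall of Slc1a4 was not tested. Slc1a4 was also lower in IP than in input, in 8 of 8 pools, with an LFC of -0.57 ± 0.14 SE in DTR (adjusted p = 0.00366). In control the LFC was -0.37 ± 0.14 SE (adjusted p = 0.0431), a call that edgeR (adjusted p = 0.0901 with TMM and 0.0794 with RLE), DESeq2 (0.0722), a fit without the filter (0.0744) and 7 of 8 fits with a library left out (0.0618 to 0.113) did not make.

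Slc1a5 (ENSMUSG00000001918, chr7:16781340-16798274, plus strand) was at 10.9, 10.6, 11.7 and 12.9 CPM in control input and at 7.42, 7.30, 6.17 and 5.198 CPM in control IP, with no overlap. DTR input held 13.5, 14.0, 16.2 and 17.0 CPM and DTR IP held 10.3, 9.26, 10.1 and 13.0 CPM. IP was below input in 8 of 8 pools, and DTR was above control in every library of both sample types, in CPM.
The LFC of Slc1a5 was -0.70 ± 0.15 SE for control IP against control input (adjusted p = 0.00109, limma) and -0.50 ± 0.15 SE for DTR IP against DTR input (adjusted p = 0.0131). After damage it was 0.56 ± 0.15 SE in IP (adjusted p = 0.0142), a call lost with only these 2 groups in the fit (0.0511) or without DTR IP replicate 4 (0.0526). In input it was 0.36 (95% interval 0.05 to 0.68, adjusted p = 0.141).
Macrophage markers moved with Slc1a5, and so did part of other lists. After damage 6 of 7 were higher in IP and 6 of 7 in input, and 7 of 7 were lower in control IP than in control input. Their summed level was between 14.9 and 21.9 CPM in control IP and 39.1 and 57.3 CPM in DTR IP, with no marker at 0. Endothelial markers, 6 of 6 lower in control IP than in control input, summed to between 92.7 and 115 CPM in control IP and 147 and 168 CPM in DTR IP. After damage 2 of 6 were called higher in IP and 1 of 6 in input. Of 7 mesenchymal markers, 5 were lower in control IP than in control input, and after damage 4 were higher in IP and 0 in input. The part of these cells in the Slc1a5 values was not tested.

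The genes of glutamine handling, Glul, Slc38a1 and Slc38a2, were not called after damage in the main fit, in IP or in input. Glul (ENSMUSG00000026473, chr1:153899944-153909723, plus strand, exons shared with Teddm2 and Mir8114) was at 36.4, 33.3, 37.8 and 31.5 CPM in control input and at 42.4, 36.8, 42.6 and 47.3 CPM in control IP. DTR input held 39.3, 33.7, 36.3 and 38.4 CPM and DTR IP held 45.0, 36.2, 38.7 and 46.3 CPM. IP was above input in 8 of 8 pools, yet the libraries of the groups overlapped.
No comparison called Glul with limma. Control IP against control input came nearest, with an LFC of 0.25 (95% interval -0.00 to 0.51, adjusted p = 0.109), and here edgeR (LFC 0.34, adjusted p = 0.0208 with TMM, and 0.0330 with RLE), DESeq2 (0.0261) and the fit without control IP replicate 2 (0.0337) made a call. After damage the LFC was -0.05 in IP (95% interval -0.30 to 0.21) and 0.08 in input (95% interval -0.18 to 0.33).

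Slc38a2, which encodes the glutamine transporter SNAT2, was lower in control IP than in control input. It lies at chr15:96687392-96699730 on the minus strand (ENSMUSG00000022462). Control input held 206, 204, 176 and 199 CPM and control IP held 146, 181, 134 and 117 CPM, where control IP replicate 2 overlapped the input libraries. The LFC was -0.41 ± 0.12 SE (adjusted p = 0.00954, limma).
DTR input held 195, 188, 183 and 161 CPM and DTR IP held 192, 173, 169 and 139 CPM, largely overlapping. Here the LFC was -0.07 (95% interval -0.31 to 0.18, adjusted p = 0.687). IP was below input in 8 of 8 pools, with ratios between 0.590 and 0.887 in control and between 0.862 and 0.989 in DTR. The difference between the genotypes did not pass the test (interaction LFC 0.34, 95% interval -0.01 to 0.68, adjusted p = 0.981). DTR IP against control IP gave an LFC of 0.25 (adjusted p = 0.167), which was called without control IP replicate 2 (LFC 0.36, adjusted p = 0.0351).

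Slc38a1, the SNAT1 glutamine transporter gene (ENSMUSG00000023169, chr15:96571418-96642913, minus strand), was called in no comparison. In control mice it ranged from 60.9 to 108 CPM in input and from 71.0 to 96.3 CPM in IP. In DTR mice the ranges were 94.9 to 117 CPM in input and 78.8 to 121 CPM in IP. All 4 groups overlapped. Its LFC was 0.01 for control IP against control input (95% interval -0.31 to 0.33) and 0.20 for DTR IP against control IP (95% interval -0.12 to 0.52, adjusted p = 0.438).

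**Figure D3:**
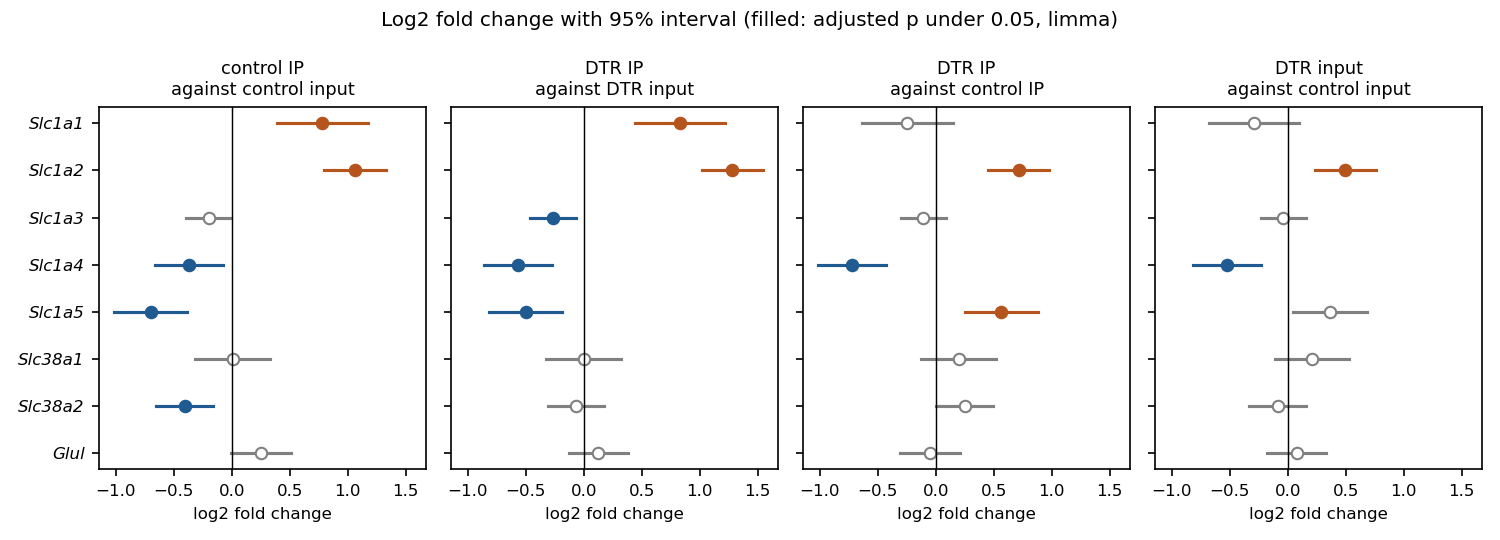
Log2 fold change (point) and 95% interval (line) of the 8 genes in 4 comparisons, with filled points for an adjusted p under 0.05 in limma, orange for higher and blue for lower. Slc1a2 was higher in all 4 panels (0.50 to 1.28), Slc1a4 lower in all 4 (-0.72 to -0.37), and Slc38a1 and Glul had no filled point.

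Counted together, 2 of the 8 genes were higher and 3 lower in control IP than in control input, where 19.3% of all tested genes were higher and 20.7% lower. In DTR IP against DTR input the counts were again 2 higher and 3 lower, against 18.6% and 20.5% of tested genes. In DTR IP against control IP, 2 were higher and 1 lower, against 8.44% and 7.3% of tested genes, and in DTR input against control input 1 was higher and 1 lower, against 7.17% and 5.21%. The median LFC of the 8 genes was -0.09, -0.03, 0.07 and 0.02 in these comparisons, beside -0.00, -0.03, -0.00 and -0.02 over all tested genes.
Stricter criteria, whose limits the study set for DTR IP against control IP, were applied here to all comparisons of 2 groups. A gene had to change by 1 or more in LFC, in either direction, with a separation above 1.5 and an adjusted p under 0.05. Separation divides the lowest library of the group with more by the highest library of the other. Of the 8 genes Slc1a2 alone was called, in both IP against input comparisons. To count a gene as enriched in IP, the study's methods ask for a log2 ratio of IP to input of 2 or more. Slc1a2 stayed below that limit (LFC 1.06 in control and 1.28 in DTR). The stricter criteria called 7.68% of tested genes in control IP against control input and 5.77% in DTR IP against DTR input. In the damage comparisons they called none of the 8 genes in IP, beside 2.47% of tested genes, and none in input, beside 2.34%, while limma at the adjusted p alone called 3 and 2.
For the interaction, limma called 0 of the 8 genes, 0 at an unadjusted p under 0.05, and edgeR and DESeq2 also called 0. Among all tested genes 0.0118% were called, namely Trh (LFC -1.86) and Gm34653 (LFC -1.73), which are named because only 2 were called. The changes of the 8 genes after damage were therefore not shown to differ between IP and input, and the intervals of these differences were wide, from -0.61 to 0.22 for Slc1a4 and from -0.01 to 0.68 for Slc38a2.

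The pattern over the 16 libraries was compared with that of every tested gene by Pearson's r on the log2 scale, as a description. The points share pools in pairs and fall into 4 groups, so that r mostly reflects group means. Slc1a3 was most like Med15 (r = 0.940), Tfcp2 (0.939), Fbxo18 (0.906), Ppp2r5d (0.906) and Cs (0.903), and Cs encodes citrate synthase. Slc1a2 was most like Mtap7d3 (0.976) and Cpne8 (0.974), and Slc1a4 like Gpc1 (0.964) and Letm1 (0.962). Slc1a5 was nearest to Tns2 (0.945) and Anxa3 (0.941), Slc1a1 to Dcun1d2 (0.955) and Sec14l2 (0.943), Glul to Gm11964 (0.936) and Mrpl37 (0.926), and Slc38a2 to Matr3 (0.910) and Rbms3 (0.892). Slc38a1 had the weakest match, Ccdc116 (0.772) and Gm19817 (0.759).

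Around the transporters, the ion gradients that drive glutamate uptake are kept by the sodium pump and, in glia, by the potassium channel Kir4.1, which Kcnj10 encodes. Of 7 genes for pump subunits and this channel, 3 fell and 0 rose in DTR IP against control IP (median LFC -0.39), where 7.3% of all tested genes were lower and 8.44% higher. Kcnj10 fell from 60.8 ± 7.75 CPM to 18.0 ± 4.25 CPM (LFC -1.79 ± 0.17 SE, adjusted p = 5.35e-07, limma) and Atp1b2 from 165 ± 13.9 CPM to 59.1 ± 13.0 CPM (LFC -1.53). In input, where 5.21% of all tested genes were lower, 2 of 7 fell, Kcnj10 (LFC -1.43) and Atp1b2 (LFC -1.02).
The direction in this list was thus opposite to that of Slc1a2 in the same libraries. Markers of pillar and Deiters cells fell with these genes, from a summed level between 1193 and 1556 CPM in control IP to between 466 and 692 CPM in DTR IP, with no marker at 0. Of 6 tested stria vascularis markers 3 fell and 1 rose, and 2 of the 3 that fell are Kcnj10 and Atp1b2, which stand in both lists. The part of these cells was not tested.

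Glutamate is also carried into mitochondria and exchanged at the plasma membrane. Of 4 mitochondrial carriers, 3 were higher and 0 lower in control IP than in control input, where 19.3% of all tested genes were higher and 20.7% lower, led by Slc25a13 (43.2 ± 10.4 against 17.4 ± 2.31 CPM, LFC 1.26) and Slc25a18, a mitochondrial glutamate carrier (15.8 ± 3.55 against 6.76 ± 1.54 CPM, LFC 1.19). After damage Slc25a18 fell to 2.94 ± 0.554 CPM in IP (LFC -2.29 ± 0.25 SE, adjusted p = 2.15e-06, limma) and to 2.19 ± 0.724 CPM in input (LFC -1.51), and the other 3 carriers were not called.
Of 5 tested exchangers, Slc7a10, the Asc-1 carrier of small neutral amino acids, showed the same order. It was higher in control IP than in control input (LFC 1.17), fell in IP from 5.91 ± 0.497 to 0.720 ± 0.219 CPM (LFC -2.60 ± 0.19 SE, adjusted p = 1.32e-08) and fell in input (LFC -1.59). Of the same 5 exchangers 1 rose in DTR IP against control IP, where 8.44% of all tested genes were higher. It was Slc3a2 (LFC 0.39, adjusted p = 0.0257, limma), which is named after its value was seen. Pillar and Deiters cell markers (7 of 8) fell in the libraries in which Slc25a18 and Slc7a10 fell. Unlike these 2 genes, 4 of the 8 markers were lower in control IP than in control input, and 2 were higher. In DTR IP against control IP, inner phalangeal cell markers fell as well (3 of 5 lower, 0 higher). For the greater epithelial ridge, the epithelium medial to the hair cells, 3 of 8 were lower and 1 higher. For stria vascularis 3 of 6 were lower and 1 higher. The part of these cells was not tested. Slc7a5, the large neutral amino acid transporter LAT1, was lower in IP than in input in control (LFC -1.17) and DTR (LFC -1.06). Slc7a11, the cystine and glutamate exchanger, was called in no comparison (LFC 0.16 for DTR IP against control IP, adjusted p = 0.681).

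Of the other Slc38 genes, 7 of 9 were tested, and 3 were higher and 3 lower in control IP than in control input, beside 19.3% and 20.7% of all tested genes. Slc38a6 was the most enriched, at 4.12 ± 0.607 CPM in control input and 22.7 ± 5.81 CPM in control IP (LFC 2.30 ± 0.18 SE, adjusted p = 1.28e-08, limma), and it was enriched in DTR as well (LFC 1.96). Slc38a5 (LFC -1.61) and Slc38a4 (LFC -1.47) were lower in control IP. After damage 1 of 7 was called in IP, where 8.44% of all tested genes were higher and 7.3% lower. In input 0 were called, beside 7.17% higher and 5.21% lower over all tested genes. The remaining Slc1 genes were low. Slc1a7 was below the filter, and Slc1a6, a glutamate transporter of Purkinje cells, was at 1.88 ± 0.223 CPM in control input and 0.764 ± 0.335 CPM in control IP (LFC -0.89).

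Enzymes of glutamate and glutamine metabolism were lower in IP than in input where they were called. Of 17 tested, 8 were lower and 0 higher in control IP (median LFC -0.365), beside 20.7% and 19.3% of all tested genes, and 8 were lower and 0 higher in DTR IP against DTR input (median LFC -0.34), beside 20.5% and 18.6%. The glutamate and pyruvate transaminase Gpt2 (LFC -1.01) and Aldh18a1 of proline synthesis (LFC -0.79) were among those lower in control. After damage 1 rose and 1 fell in IP, beside 8.44% and 7.3% of all tested genes. Gpt rose from 2.83 ± 1.03 to 7.85 ± 1.66 CPM (LFC 1.24), and Gad1, which makes GABA from glutamate, fell from 52.5 ± 6.05 to 27.1 ± 6.24 CPM (LFC -1.01). In these libraries markers of pillar and Deiters cells (7 of 8), inner phalangeal cells (3 of 5) and the greater epithelial ridge (3 of 8, with 1 higher) fell. Their part was not tested.

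Of 17 tested ionotropic glutamate receptor genes, 8 were lower and 1 higher in control IP than in control input (median LFC -0.505), beside 20.7% and 19.3% of all tested genes, and 8 were lower and 1 higher in DTR IP against DTR input, beside 20.5% and 18.6%. Grik1 (LFC -1.67), Grik2 (LFC -1.65) and Grin3a (LFC -1.33) led in control. Markers of hair cells (9 of 10), Schwann cells and satellite glia (7 of 8) and neurons (3 of 8) were lower in the same comparison, and their part was not tested. After damage 2 rose and 1 fell in IP, where Grik4 fell (LFC -0.60) and Grik5 (LFC 0.49) and Gria3 (LFC 0.43) rose, and 1 rose and 0 fell in input, Grik5 (LFC 0.50). Over all tested genes 8.44% rose and 7.3% fell in IP, and 7.17% and 5.21% in input.
Of 5 tested metabotropic receptor genes, 1 was lower and 0 higher in control IP than in control input, Grm4 (LFC -0.55), beside 20.7% and 19.3% of all tested genes. Grm8 rose after damage in IP (LFC 1.53) and input (LFC 1.54), from levels of 0.355 ± 0.252 CPM and 0.727 ± 0.162 CPM, and Grm7 fell in IP (LFC -1.13).

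The vesicular transporters load glutamate into synaptic vesicles, VGLUT3 (Slc17a8) in inner hair cells and VGLUT1 and VGLUT2 (Slc17a7 and Slc17a6) in neurons. In control mice Slc17a8 was at 1.95 ± 0.568 CPM in input and 1.05 ± 0.560 CPM in IP, and in DTR mice at 3.97 ± 1.01 and 3.84 ± 1.197 CPM. After damage it rose in IP (LFC 1.42 ± 0.25 SE, adjusted p = 6.45e-04, limma) and in control mice IP was below input (LFC -0.66, adjusted p = 0.0454). Hair cell markers rose in DTR IP against control IP in 3 of 10 cases, from a summed level between 183 and 270 CPM to between 278 and 319 CPM, and their part was not tested. Slc17a6 and Slc17a7 were not called and varied widely, Slc17a7 from 7.81 to 55.3 CPM among the control input libraries.

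Of 7 genes for known binding partners of the glutamate transporters, 1 rose and 0 fell after damage in each sample type, a share near that of all tested genes (8.44% higher in IP and 7.17% in input). Ajuba, whose LIM domain protein binds GLT-1, went from 56.9 ± 7.10 to 136 ± 14.5 CPM in input (LFC 1.23 ± 0.12 SE, adjusted p = 6.20e-07, limma) and from 93.9 ± 8.95 to 174 ± 20.3 CPM in IP (LFC 0.91). It was also higher in IP than in input in control (LFC 0.72) and DTR (LFC 0.39), so it shared the order of the groups with Slc1a2 except that DTR input lay above control IP. Slc9a3r1 was higher in IP in control (LFC 0.70) and DTR (LFC 0.54).

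Amino acid shortage is answered by the transcription factor ATF4, which acts on elements of the kind found at the Slc1a4 start. Of 13 amino acid response genes, 2 rose and 0 fell in DTR IP against control IP, and 2 rose and 0 fell in input, beside 8.44% and 7.17% of all tested genes that rose, so that nothing is read from the count. Atf4 went from 99.5 ± 11.2 to 197 ± 8.05 CPM in IP (LFC 1.01 ± 0.12 SE, adjusted p = 6.94e-06, limma) and from 76.9 ± 11.1 to 178 ± 30.1 CPM in input (LFC 1.18), and Ddit3 rose in IP (LFC 0.76) and input (LFC 1.04). The other 11 genes of the list were not called after damage, and Slc1a4 fell in the same libraries. In control IP against control input 6 of 13 were higher and 1 lower, beside 19.3% and 20.7% of all tested genes, with Sesn2 (LFC 1.66), Trib3 (LFC 1.37) and Chac1 (LFC 1.36) in the lead.

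**Figure D4:**
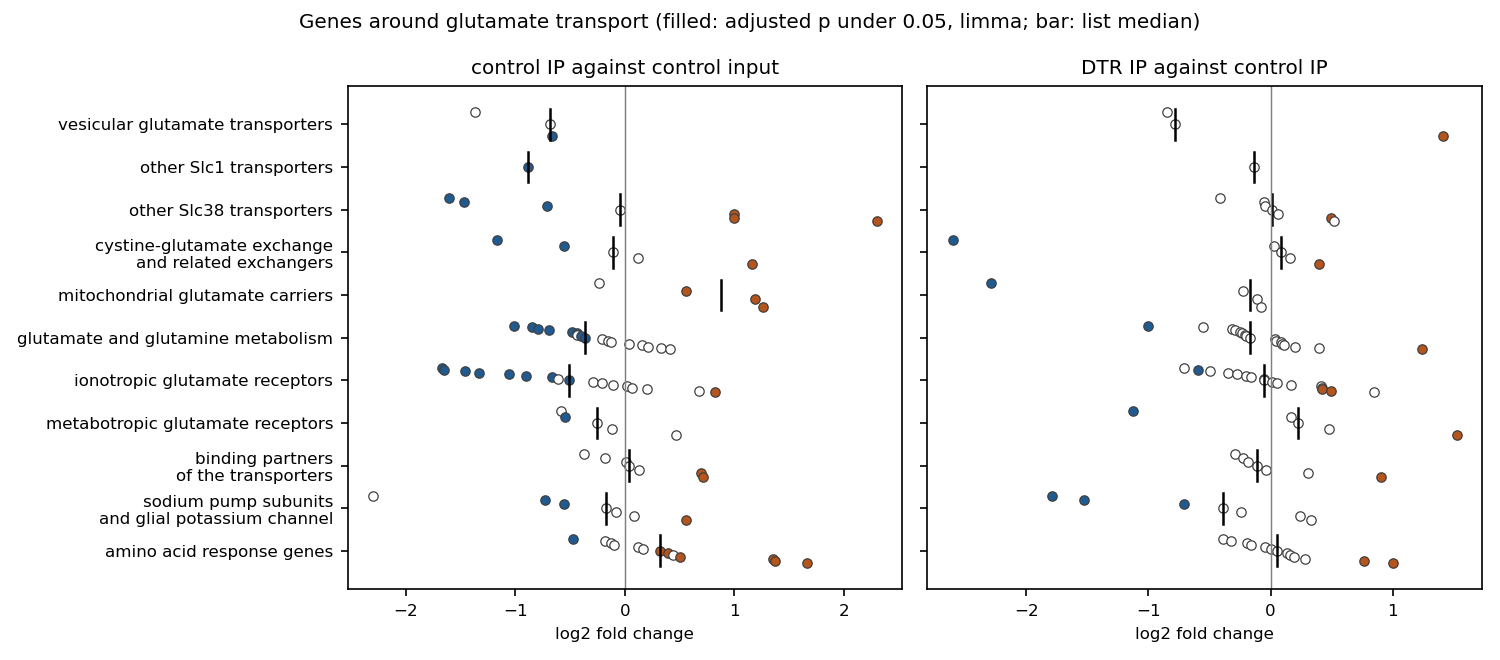
Log2 fold change of the tested genes of 11 lists around glutamate transport in control IP against control input (left) and DTR IP against control IP (right), with filled points for an adjusted p under 0.05 in limma and a bar at each list's median. Most ionotropic receptor and metabolic genes lie left of 0 on the left, and Slc7a10 (-2.60), Slc25a18 (-2.29) and Kcnj10 (-1.79) lie farthest left on the right.

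Markers of other cell types set the background of each comparison. Hair cell, Schwann cell, macrophage, endothelial and mesenchymal lists were lower in summed level in control IP than in control input without overlap, for Schwann cells and satellite glia 950 to 1405 CPM against 2899 to 4815 CPM. Markers of the greater epithelial ridge, the epithelium medial to the hair cells, summed to between 20160 and 26900 CPM in control IP and 12300 and 17400 CPM in control input, but only 2 of 8 were called higher and 1 lower. In DTR input the Schwann cell and satellite glia list was lower than in control input, between 1502 and 2221 CPM, with 6 of 8 markers called lower. Slc1a3 did not change with it (LFC -0.04 in input), and whether these cells added to the Slc1a3 level of input was not tested.

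**Figure D5:**
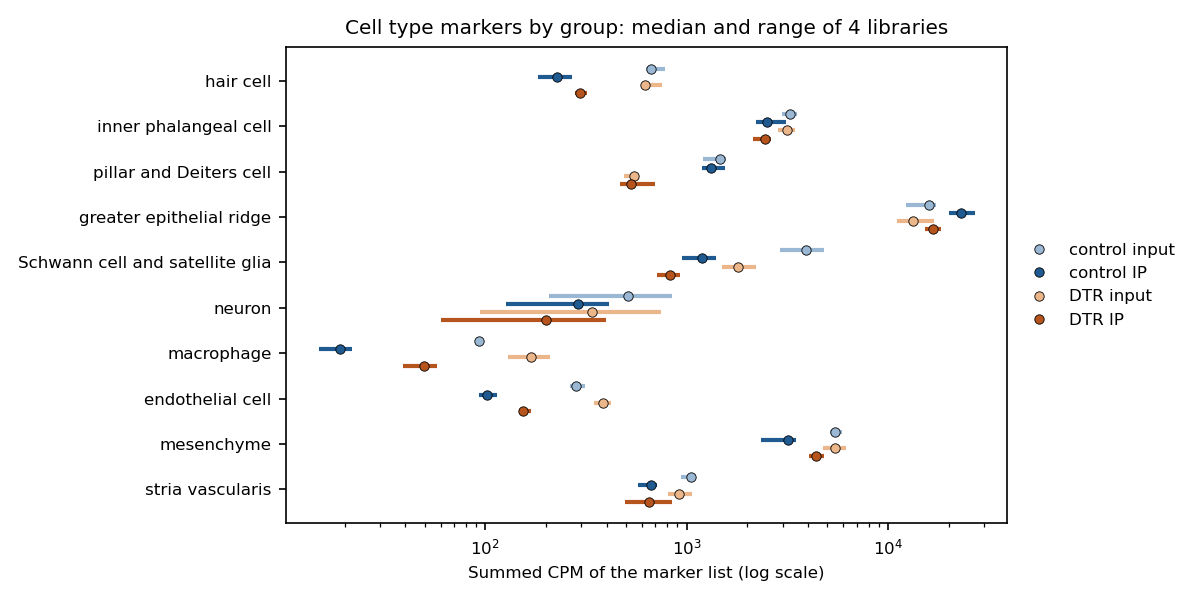
Summed CPM (log scale) of 10 lists of cell type markers in the 4 groups, as the median (point) and range (line) of 4 libraries. Macrophage markers were lowest in control IP (14.9 to 21.9 CPM), and pillar and Deiters cell markers fell after damage in both sample types.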

How the data were processed

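Libraries were made with the SMART-Seq v4 kit. The deposited values are CPM, which the authors made by counting reads on genes with HTSeq after alignment to GRCm38 with HISAT2 2.0.4 according to the methods, whereas the processing notes in the labels name TopHat. The annotation release and the strand setting are not given in the sources used here. Of the deposited CPM values above 0, 99.9998% were whole multiples of the value of 1 read within 0.01 reads, so read counts were recovered for edgeR and DESeq2. Of 50316 genes listed, 2587 were NA in every library and 173 had no name.

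CPM were quantile normalized, log2 transformed with a pseudocount of 0.5 and tested with limma (version 3.58.1, R 4.3.3, trended eBayes, 4 group means over 16 libraries), for the 16994 genes that reached 0.5 CPM in every library of 1 or more groups. All 8 members passed this filter. For the separation, values under 1.08 CPM, the 10th percentile, were raised to it. Intervals are 95% intervals of the LFC. Gene positions, overlaps and lengths (the union of exons) came from GENCODE M21. The p-values rest on the spread between libraries within groups, taken over the 4 groups together. The main fit treated IP and input of the same pool as independent. For IP against input, only the alternative with the replicate number as a block used the pairing.

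Named genes were the 8 members in every comparison, from each list at most 3 called genes per comparison with the largest change and no overlap after quantile normalization, the genes nearest in pattern, and Lgr5. Members and lists were chosen with earlier results of these data known. Slc7a11, Slc3a2, Gria3, Slc17a6, Slc17a7, Slc1a7 and the genes called for the interaction were named in addition, after their values were seen. Some genes that the rule selects are not reported here.

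The numbers pair IP and input of a pool by design. The deviations of same-numbered libraries from their group means correlated in every pair of the 4 comparisons. Mean r was between 0.357 and 0.407. For different numbers it was -0.119 to -0.135. Deviations from a group mean cancel out within the group, so these negative values follow from the positive ones and are no separate comparison. For same numbers, mean r was 0.373 for IP and input of control pools and 0.407 for those of DTR pools. Across genotypes, where no pool is shared, it was 0.388 in IP and 0.357 in input. The correlation therefore does not single out a shared pool, and its source across genotypes was not tested. The main fit, and so its damage comparisons, left the number out. The number was used as a block in an alternative. Other alternatives were no quantile normalization, median centring, pseudocounts of 0.1 and 1, no filter, at least 2 CPM, only the groups compared, edgeR 4.0.16 (TMM or RLE), DESeq2 1.42.0, the study's criteria, each library left out, and the longest transcript as gene length. The test was checked on simulated data, where the interaction recovered fewer of the changed genes than the comparisons of 2 groups at each fold tried. At 1.5-fold, 19.4% were recovered in control IP against control input, 20.9% in DTR IP against control IP and 0% for the interaction. Of the calls, 4.39%, 5.88% and 8.62% were false in the same order. Simulated libraries were drawn independently, without the correlation between same-numbered libraries.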

Additional observations from a re-analysis of the deposited data

Results flagged for a closer look

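Of 32 sets of 4 libraries (8 genes in 4 groups), 3 held a library that stood farther from the others than Dixon's 95% limit for 4 values, and chance flags about 1 in 20 such sets. Slc1a2 was at 105 CPM in DTR IP replicate 3, above 80.1 to 83.5 CPM in the other libraries of the group, and without this library the rise over control IP was still called (LFC 0.63, with adjusted p-values of limma between 9.26e-04 and 0.0027 over the 8 fits that each leave out a library). Slc1a3 was at 303 CPM in control input replicate 4, above 274 to 275 CPM in the others. Slc38a1 was at 71.0 CPM in control IP replicate 4, below 92.2 to 96.3 CPM in the others, and at 60.9 CPM, again the lowest of its group, in the input of the same pool.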

How the results depend on the processing

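The 40 results (8 genes in 5 comparisons) were each repeated under the settings that apply to them, which gave 816 combinations of result and setting. Of these combinations, 757 kept direction and call, 22 lost the call, 8 gained one and 29 changed sign. These settings leave out the study's criteria. Of the 15 called results, 10 held under each of these settings and 0 changed sign, and the other 5 are given with their values in the report. Under the study's criteria for DTR IP against control IP, applied to all comparisons of 2 groups, 2 of the 15 held, Slc1a2 in both IP against input comparisons. In control IP against control input these criteria called 1 of the 8 genes and 1305 tested genes. They called 1 and 981 in DTR IP against DTR input, 0 and 419 in DTR IP against control IP, and 0 and 397 in DTR input against control input. Without a library, 0 to 2 of the 8 genes were called in DTR input against control input (0 without control input replicate 3, and 1 without DTR input replicate 1 or 3).

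The replicate block changed 0 calls of the 8 genes. It moved the tested genes called for the interaction from 2 to 40, and their number was 49 with DESeq2, 0 with edgeR TMM, 0 with edgeR RLE, 0 without the filter, 1 without quantile normalization, 0 with a pseudocount of 0.1 and 0 to 6 without a library. The interaction has no fit on only the groups compared. Changes of sign came only in results without a call. Slc38a1 in control IP against control input was -0.0084 without quantile normalization, -0.015 with median centring and -0.16 to 0.094 without a library. In DTR IP against DTR input it was 0.0071 with edgeR TMM, 0.012 with edgeR RLE, 0.0116 with DESeq2 and -0.081 to 0.11 without a library. For its interaction it was 0.0045 without quantile normalization, 0.0080 with edgeR RLE, 0.0081 with DESeq2 and -0.095 to 0.16 without a library. Without a library Slc38a2 ranged from -0.14 to 0.013 in DTR IP against DTR input, Glul from -0.14 to 0.036 in DTR IP against control IP, and Slc1a1 from -0.091 to 0.22 for the interaction. The cause was not tested. Slc1a5 in control IP rested on the fewest reads, 159 to 251 per library. With the longest transcript as length, 8 of 32 ranks changed, and Slc1a3 and Slc38a2 kept theirs.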
